A study of Mus musculus with 6 samples.

Results

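The 10 genes described here encode muscle ankyrin repeat, Z-disc and chaperone proteins of the response to strain and damage. They were chosen by name, as the rows of the deposited expression table with the symbols *Ankrd1*, *Ankrd2*, *Csrp3*, *Smpx*, *Xirp1*, *Flnc*, *Bag3*, *Hspb1*, *Hspb7* and *Cryab*. All 10 were among the 41709 genes of the table, and all 10 passed the filter on low values, which left 11611 genes for testing.

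RNA-seq was done on 6 tibialis anterior (TA) muscles of mice. Of these, 3 were electroporated with a plasmid for wild-type Lrpprc (LrpprcWT, the control) and 3 with a plasmid for the dihydroxylation-resistant LrpprcP27A variant, in which alanine stands in place of proline 27 of this mitochondrial RNA-binding protein. The mice were C57BL/6J males, and muscles were collected 14 days after electroporation. The labels give no age, and the methods describe 4-month-old mice for the experiments in young animals. Both plasmids were Flag-tagged and driven by a CMV promoter, which is not restricted to muscle fibres, and both groups kept their own *Lrpprc* gene. One TA of a mouse received LrpprcWT and the contralateral TA LrpprcP27A. The libraries were numbered 4, 8 and 9 in both groups (replicates 1, 2 and 3), and libraries with the same number were treated as the muscles of 1 mouse in the paired fits. Values are TPM, a unit scaled to the same total of 1000000 in every library: a gene's share of the transcripts of a library after correction for transcript length. TPM keeps no depth, and the counting error of each value is therefore unknown. Marker genes of muscle fibres, such as *Ckm*, *Acta1* and *Myh4*, were abundant in both groups, and 8 such markers together took 122072 to 135232 TPM with LrpprcWT and 112230 to 127057 TPM with LrpprcP27A. *Lrpprc* itself, counted without separating plasmid from mouse transcripts, had 35.1, 37.0 and 75.2 TPM with LrpprcWT and 26.9, 29.7 and 26.0 TPM with LrpprcP27A. Its log2 fold change was -0.72. In the fits described below, the limma adjusted p was 0.0652 unpaired, 0.00243 paired and 0.295 paired with median-of-ratios scaling. The paper reports similar *Lrpprc* mRNA with both plasmids by qRT-PCR.

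The Z-disc anchors the thin filaments of neighbouring sarcomeres and carries the force of contraction from one sarcomere to the next. Proteins bound to it and to the spring region of titin sense stretch. The muscle ankyrin repeat proteins Ankrd1 and Ankrd2 bind titin and can enter the nucleus, and their genes are known to respond to stretch, injury and overload. Where filaments are torn, the Xin protein Xirp1 and filamin C gather at the lesion. The co-chaperone Bag3 acts with small heat shock proteins to refold unfolded filamin or hand it to autophagy, a process called chaperone-assisted selective autophagy. Such genes are raised in overloaded, damaged and regenerating muscle.

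The bases before the start site are shown for 3 of the genes, the related *Ankrd1* and *Ankrd2*, whose ratio was lower in the LrpprcP27A muscle of all 3 pairs, and the chaperone *Hspb1*. Each window holds the 250 bases before the start of the Ensembl canonical transcript, 5′ to 3′ on the strand of the gene, in GRCm39 with the GENCODE annotation, and none of these 3 windows overlaps an annotated exon. Capitals mark matches to the motifs searched.
*Ankrd1* (chr19:36097507-36097756, reverse strand): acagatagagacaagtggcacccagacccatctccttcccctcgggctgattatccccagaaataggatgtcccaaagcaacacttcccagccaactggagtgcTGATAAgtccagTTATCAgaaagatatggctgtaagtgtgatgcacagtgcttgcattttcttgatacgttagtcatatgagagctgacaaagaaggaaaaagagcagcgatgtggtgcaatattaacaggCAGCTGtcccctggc
*Ankrd2* (chr19:42024024-42024273, forward strand): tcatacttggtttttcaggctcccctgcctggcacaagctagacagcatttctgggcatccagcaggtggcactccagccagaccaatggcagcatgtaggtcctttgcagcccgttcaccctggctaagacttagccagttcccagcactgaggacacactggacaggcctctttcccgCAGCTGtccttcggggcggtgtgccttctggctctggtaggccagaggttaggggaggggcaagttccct
*Hspb1* (chr5:135916510-135916759, forward strand): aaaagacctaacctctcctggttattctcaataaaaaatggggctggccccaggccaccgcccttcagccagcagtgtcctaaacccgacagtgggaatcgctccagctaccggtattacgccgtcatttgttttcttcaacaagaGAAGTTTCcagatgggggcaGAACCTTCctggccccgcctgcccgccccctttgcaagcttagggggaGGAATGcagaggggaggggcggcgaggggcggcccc
The capitals in *Ankrd1* are 2 GATA motifs (TGATAA on either strand, first bases 146 and 134 before the start) and an E-box (CAGCTG, 15 before the start), the type of site that the MyoD family of muscle regulators binds. *Ankrd2* holds an E-box 70 bases before its start. The capitals in *Hspb1* are 2 heat shock elements (GAANNTTC, 104 and 84 bases before the start), which heat shock factors bind, and an MCAT motif (CATTCC on either strand, 36 before the start), the type of site that TEAD factors bind. Among the windows of all 10 genes, those of *Hspb1*, *Cryab* and *Flnc* held GAANNTTC, as did 6.34% of the 21738 windows of protein-coding genes. All 250 bases of the *Bag3* window lay in annotated exons, as did 115 bases for *Cryab*, 69 for *Smpx* and 4 for *Xirp1*. The E-box was in 2 of the 10 windows and in 11.9% of all windows, the GATA motif in 1 and in 7.63%, and the MCAT motif in 1 and in 12.1%. The other arrangement of the heat shock element (TTCNNGAA) and the CArG box were in none of the 10, and in 6.80% and 1.4% of all windows, and the TATA box (TATAAA) was in 1, that of *Csrp3*, and in 11.9%. The E-box and GATA motifs were added to the search after the windows had been read. A match only describes these letters and does not show that a factor binds there.

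On the scale as deposited, all 10 genes had a log2 fold change below 0 in LrpprcP27A against LrpprcWT muscles, but so did 88.0% of all tested genes. *Ankrd1* had the largest change, with a mean 4.06 times lower, and *Csrp3* and *Xirp1* fell to 0.416 and 0.471 of their control means. Of the 10 genes, *Ankrd1* and *Xirp1* passed the unpaired test (limma on log2(TPM + 1), adjusted p under 0.05), where 23.3% of all tested genes were called lower. None of the 10 was called higher, against 1.34% of all tested genes, and at an unadjusted p under 0.05 the limma counts were 4 lower and 0 higher, where 44.2% of all tested genes were lower and 2.59% higher. Limma with the replicate number as a block, called the paired fit from here on, gave 9 of the 10 genes as lower, all except *Flnc*, where 48.4% of all tested genes were called lower and 2.69% higher. Those 9 genes were lower in all 3 pairs of muscles, as were 70.1% of all tested genes. The median log2 fold change of all tested genes was -0.32 on this scale, and that of the 10 genes was -0.55. A scaling of the libraries that sets the typical gene to little change (median-of-ratios) moved these medians to 0.036 and -0.13. Log2 fold changes were then below 0 for 7 of the 10 genes and 44.9% of all tested genes. Unpaired, only *Ankrd1* was then called, where 5.81% of all tested genes were lower and 6.83% higher, and 4 of the 10 genes (*Ankrd1*, *Csrp3*, *Xirp1* and *Hspb1*) were lower in all 3 pairs, as were 28.6% of all tested genes. *Ankrd1* was also the only one called after rescaling without mitochondrial and ribosomal RNA genes (background 5.7% lower and 1.9% higher) and after quantile normalization (4.48% and 4.25%). These put 9 of the 10 genes below 0 each, against 72.8% and 45.0% of all tested genes. In the paired fit with median-of-ratios scaling, *Ankrd1*, *Csrp3* and *Xirp1* were called lower, where 14.1% of all tested genes were, and none of the 10 was called higher, where 17.2% were. At an unadjusted p under 0.05 this last fit gave 3 lower and 1 higher, where 19.8% of all tested genes were lower and 25.2% higher. In bulk tissue, fewer cells of a type and less RNA per cell cannot be told apart.

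**Figure D1:**
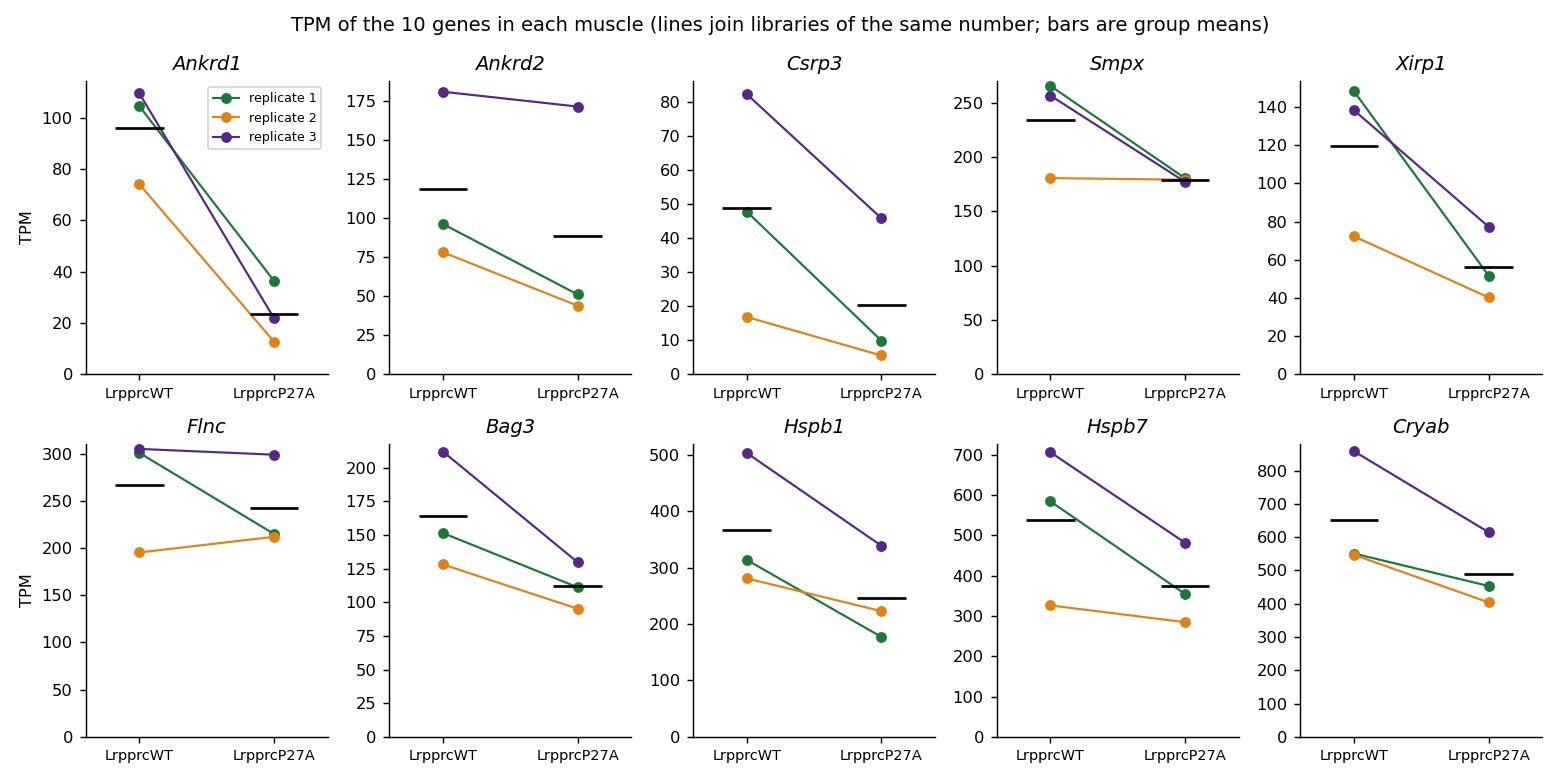
TPM (linear axis from 0) of each of the 10 genes in the 6 muscles. Lines join libraries of the same number and short black bars are the group means (n = 3). The LrpprcP27A values lie below all LrpprcWT values for *Ankrd1* and *Smpx*, and overlap them for the other 8 genes.

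*Ankrd1* (chromosome 19, 36089352 to 36097506, GRCm39) encodes cardiac ankyrin repeat protein, which binds the N2A region of titin. It had 105, 74.1 and 109.5 TPM in LrpprcWT replicates 1, 2 and 3 and 36.4, 12.7 and 21.8 TPM in the LrpprcP27A replicates. Every LrpprcP27A muscle was below every LrpprcWT muscle, by a wide gap (two-sided exact permutation p = 0.1, the least that 3 against 3 can give; 47.6% of all tested genes were separated in this direction). The mean fell from 96.1 ± 19.2 TPM to 23.7 ± 11.97 TPM (SD, n = 3), a log2 change of -2.08 ± 0.32 (SE), at limma adjusted p-values of 0.0125 unpaired and 1.03e-08 paired. Only 0.370% of all tested genes had a lower log2 fold change. The 3 other scalings of the libraries gave log2 changes from -1.91 to -1.66 (adjusted p = 0.0269 to 0.0343 from limma without the block). The call was lost without the LrpprcWT library of replicate 3 (adjusted p = 0.0897 from limma), where only 15 genes of the whole table were called lower and 3 higher, and with no filter on low values (0.0610). In the paired fit *Ankrd1* was still called with any 1 mouse left out (limma adjusted p of at most 0.00257). Limma draws the variance of each gene towards that of all genes. All paired p-values given here therefore do not measure the spread between these mice alone, least of all with a mouse left out.

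*Ankrd2* (chromosome 19, 42024274 to 42033552) encodes the ankyrin repeat protein that slow fibres carry most, and it lies on the same chromosome as *Ankrd1*. It had 96.3, 78.1 and 181 TPM with LrpprcWT and 51.1, 43.9 and 172 TPM with LrpprcP27A. Both muscles of replicate 3 stood above all others, so the groups overlapped. This was a log2 change of -0.60 ± 0.49 (SE), with an unpaired limma adjusted p of 0.336. Within pairs the log2 differences were -0.90, -0.82 and -0.077, lower in 3 of 3 pairs but close to 0 in replicate 3 (paired limma adjusted p = 0.00256 as deposited, and 0.521 with median-of-ratios scaling). In the same pair of replicate 3 muscles the log2 difference of *Ankrd1* was -2.27.

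*Csrp3* (chromosome 7, 48480142 to 48497901) encodes muscle LIM protein, a Z-disc protein of slow and cardiac muscle that takes part in sensing stretch. It had the lowest level of the 10, with 47.8, 16.8 and 82.3 TPM in the LrpprcWT muscles and 9.87, 5.48 and 45.8 TPM in the LrpprcP27A muscles. Each LrpprcP27A muscle was below its LrpprcWT partner, but the replicates of each group were so spread that the groups overlapped. The ratio of LrpprcP27A to LrpprcWT TPM was 0.206, 0.326 and 0.557 in the 3 pairs. Its log2 change of -1.49 ± 0.73 (SE) had limma adjusted p-values of 0.138 unpaired and 2.65e-06 paired. Median-of-ratios scaling gave -1.08 (limma adjusted p 0.330 unpaired, 0.0246 paired). Without the LrpprcP27A library of replicate 3, the unpaired log2 fold change was -2.31 (adjusted p = 0.0462 from limma). Without the LrpprcP27A library of replicate 2 or the LrpprcWT library of replicate 3 it was -0.89 and -0.99 (adjusted p = 0.339 and 0.413 from limma).

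*Smpx* (chromosome X, 156481900 to 156536688) encodes a small protein of striated muscle, also called chisel, found near the cell membrane over the sarcomere's costameres. It had 266, 181 and 257 TPM with LrpprcWT and 181, 179 and 177 TPM with LrpprcP27A. The LrpprcP27A muscles were nearly equal, and the LrpprcWT muscle of replicate 2 was almost as low as they were. The groups did not overlap (exact permutation test, two-sided, p = 0.1), by a margin of less than 1 TPM. This was a log2 change of -0.37 ± 0.15 (SE), with limma adjusted p-values of 0.0889 unpaired and 0.0250 paired, close to the median of all genes. Median-of-ratios scaling gave 0.055 (95% interval -0.16 to 0.27 with the block).

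*Xirp1* (chromosome 9, 119842821 to 119852664), whose Xin repeats bind actin, had 148, 72.2 and 138 TPM with LrpprcWT and 51.7, 40.2 and 77.3 TPM with LrpprcP27A. It was lower in 3 of 3 pairs, and the groups overlapped only because the LrpprcP27A muscle of replicate 3 was just above the LrpprcWT muscle of replicate 2. This was a log2 change of -1.05 ± 0.30 (SE), with limma adjusted p-values of 0.0392 unpaired and 8.24e-06 paired. Median-of-ratios scaling gave -0.64 (limma adjusted p 0.119 unpaired, 0.0205 paired). The unpaired call was also lost with no filter on low values, with rescaling and with quantile normalization (limma adjusted p 0.0981, 0.0980 and 0.0961). So it was without the LrpprcWT library of replicate 1 or 3 and without the LrpprcP27A library of replicate 1 or 2, with adjusted p from limma of 0.121, 0.156, 0.0673 and 0.104.

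*Flnc* (chromosome 6, 29433072 to 29461887), which encodes the muscle filamin that crosslinks actin at the Z-disc, was not called in any fit. It had 301, 195 and 305 TPM with LrpprcWT and 215, 212 and 299 TPM with LrpprcP27A. The groups overlapped, and the LrpprcP27A muscle of replicate 2 was the only value among the 30 pairs of muscles and genes above its partner. This was a log2 change of -0.13 ± 0.20 (SE), with limma adjusted p-values of 0.599 unpaired and 0.391 paired. This log2 change was above that of 76.4% of all tested genes. Median-of-ratios scaling gave 0.29 (95% interval 0.021 to 0.56 paired, limma adjusted p 0.0928), higher in 3 of 3 pairs.

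**Figure D2:**
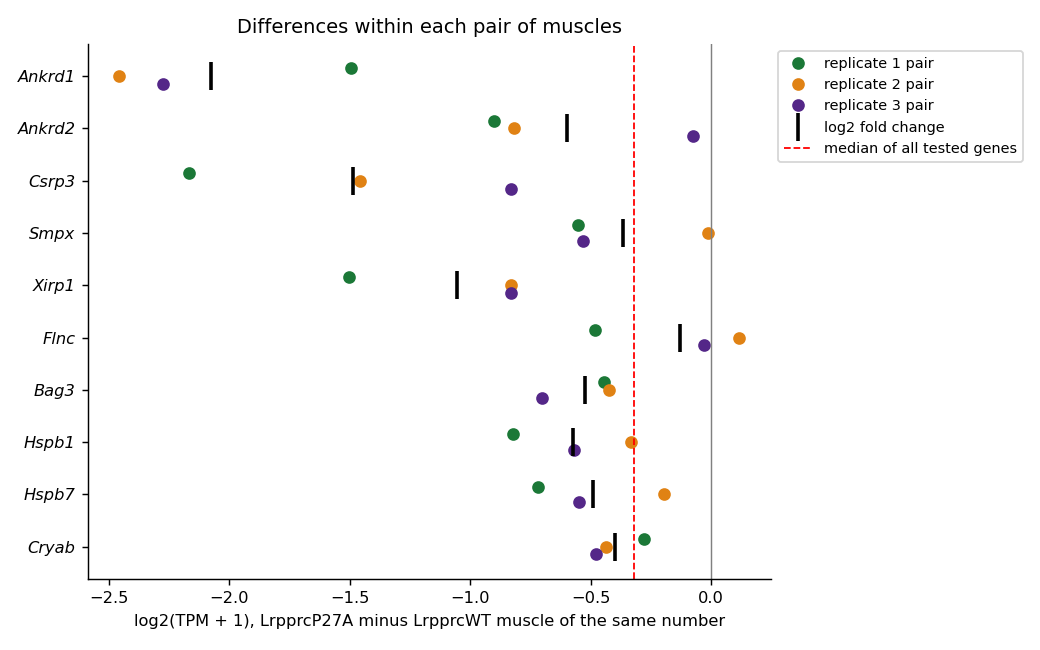
Difference in log2(TPM + 1) between the LrpprcP27A and the LrpprcWT muscle of the same number (x axis) for each of the 10 genes (y axis). Dots are the 3 pairs, black bars the log2 fold change, and the dashed line the median log2 fold change of all tested genes (-0.32). All dots of *Ankrd1*, *Csrp3*, *Xirp1*, *Bag3* and *Hspb1* lie to the left of the dashed line, and *Ankrd2* spreads from -0.90 to -0.077.

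Bag3 and the small heat shock proteins are the chaperone arm. None of these 4 genes passed the unpaired test, where 23.3% of all tested genes were called lower. All 4 passed with the replicate block on the deposited scale, where 48.4% were called lower. None passed with the block and median-of-ratios scaling, where 14.1% were called lower. *Bag3* (chromosome 7, 128125283 to 128148705) had 151, 128 and 212 TPM with LrpprcWT and 111, 95.1 and 129.7 TPM with LrpprcP27A. The highest LrpprcP27A value was just above the lowest LrpprcWT value, and each pair was lower. This was a log2 change of -0.52 ± 0.19 (SE), with limma adjusted p-values of 0.0679 unpaired and 0.00169 paired.

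*Hspb1* (chromosome 5, 135916760 to 135918417), the small heat shock protein that protects actin filaments, had 314, 281 and 503 TPM with LrpprcWT and 177, 223 and 339 TPM with LrpprcP27A. The values of the groups interleaved, and replicate 3 was highest in both. It changed by -0.57 ± 0.27 (SE) in log2 units, at limma adjusted p-values of 0.122 unpaired and 0.00108 paired. *Hspb7* (chromosome 4, 141148090 to 141152625), a heart and muscle form that binds filamin C, had 584, 326 and 706 TPM with LrpprcWT and 355, 285 and 482 TPM with LrpprcP27A. Replicate 2 was lowest in both groups for this gene. It changed by -0.49 ± 0.28 (SE) in log2 units, at limma adjusted p-values of 0.193 unpaired and 0.00395 paired. *Cryab* (chromosome 9, 50651859 to 50668567), which encodes alpha B-crystallin, the desmin chaperone, was the most abundant of the 10, with 551, 547 and 858 TPM in LrpprcWT and 453, 404 and 615 TPM in LrpprcP27A muscles. Replicate 3 was again highest in both groups. It changed by -0.40 ± 0.21 (SE) in log2 units, at limma adjusted p-values of 0.155 unpaired and 0.00914 paired.

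With median-of-ratios scaling the 4 chaperone genes lay between -0.15 and 0.024 on the log2 scale. Their 95% intervals with the block were -0.31 to 0.10 for *Bag3*, -0.37 to 0.063 for *Hspb1*, -0.28 to 0.15 for *Hspb7* and -0.23 to 0.28 for *Cryab*. On this scale each interval thus held 0, while the interval of *Ankrd1* was -2.21 to -1.12.

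**Figure D3:**
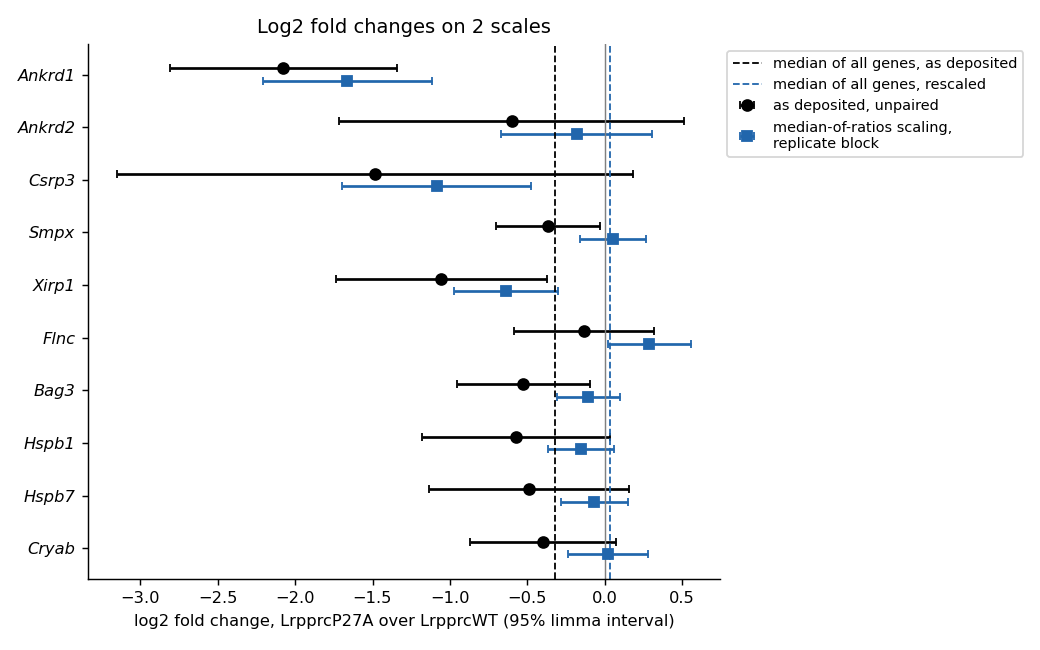
Log2 fold change of LrpprcP27A over LrpprcWT (x axis) for each of the 10 genes (y axis), with 95% intervals from limma. Black circles are values as deposited, without the block, and blue squares are values after median-of-ratios scaling, with the replicate block. Dashed lines are the medians of all tested genes on each scale (-0.32 and 0.036). All genes but *Smpx* and *Flnc* lie below the median on both scales, by the widest margin for *Ankrd1*, and after scaling the intervals of *Ankrd1*, *Csrp3* and *Xirp1* lie wholly below 0.

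In order of mean TPM in LrpprcWT muscles, the genes ran from *Cryab* (652) through *Hspb7* (539), *Hspb1* (366), *Flnc* (267), *Smpx* (234), *Bag3* (164), *Xirp1* (119.6), *Ankrd2* (118.5) and *Ankrd1* (96.1) to *Csrp3* (49.0). Neighbours in this order overlapped in their LrpprcWT values in every case. With LrpprcP27A, *Ankrd1* and *Csrp3* averaged 23.7 and 20.4 TPM. By replicate, *Ankrd1* had 36.4, 12.7 and 21.8 TPM and *Csrp3* 9.87, 5.48 and 45.8 TPM, so *Csrp3* was the higher only in replicate 3.

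Levels also varied between replicates. The LrpprcWT muscle of replicate 2 was the lowest LrpprcWT library for all 10 genes, but it was so for 80.8% of all tested genes. Replicate 3 was the highest library of both groups for 7 of the 10 genes (*Ankrd2*, *Csrp3*, *Flnc*, *Bag3*, *Hspb1*, *Hspb7* and *Cryab*), against 22.3% of all tested genes. Other targets of heat shock factors did the same in 13 of 15 genes, and other small heat shock and Bag3-pathway genes in 8 of 12. *Hspa1b*, the inducible Hsp70, had 11.97, 7.52 and 38.3 TPM with LrpprcWT and 5.50, 13.7 and 47.2 TPM with LrpprcP27A. The replicate 3 muscles of both groups were thus high in this gene. With 1 mouse standing apart there is no test of this difference. With both muscles of replicate 3 left out, the paired fit called 8 of the 10 genes lower, all except *Smpx* and *Flnc*, where 24.8% of all tested genes were lower. Without replicate 1 it called 4 of the 10 (*Ankrd1*, *Csrp3*, *Xirp1* and *Bag3*), where 24.9% were lower, and without replicate 2 it called 8, where 54.5% were.

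Relatives of these genes did not all move with them. *Ankrd23*, the third muscle ankyrin repeat gene, had 1359, 1732 and 1128 TPM with LrpprcWT and 1828, 2045 and 1837 TPM with LrpprcP27A. All LrpprcP27A muscles were above all LrpprcWT muscles, a pattern of 3.51% of all tested genes (log2 change 0.46 ± 0.15 SE, limma adjusted p 0.0562 unpaired and 0.00570 paired). *Xirp2*, the other Xin repeat gene, had 289, 259 and 208 TPM with LrpprcWT and 340, 350 and 397 TPM with LrpprcP27A. It too was higher in every LrpprcP27A muscle (log2 change 0.53 ± 0.14 SE, limma adjusted p 0.0303 unpaired and 0.00336 paired). *Flna*, which encodes filamin A, had a log2 fold change of -0.66, and *Hspb2*, the neighbour of *Cryab*, -0.22, neither of them called without pairing (limma adjusted p 0.134 and 0.117). The paired fit called *Flna* lower (limma adjusted p 0.000714) and did not call *Hspb2* (0.116).

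Ratios of 2 genes within a library do not depend on the scaling of the libraries, and 8 such ratios were computed after the values had been seen. The log2 ratio of *Xirp1* to *Xirp2* was -0.96, -1.84 and -0.59 with LrpprcWT and -2.72, -3.12 and -2.36 with LrpprcP27A. The mean difference was -1.60 and the groups did not overlap (exact permutation test, two-sided, p = 0.1, adjusted over 8 ratios 0.4). The log2 ratio of *Ankrd1* to *Ankrd23* was -3.70, -4.55 and -3.36 with LrpprcWT and -5.65, -7.33 and -6.39 with LrpprcP27A, a mean difference of -2.59 (exact permutation test, p = 0.1, adjusted 0.4). For *Cryab* over *Hspb2*, and for *Bag3* over *Hspb8*, a small heat shock protein that forms a complex with Bag3, the groups overlapped, with mean differences of -0.17 and 0.097 (exact permutation test, p = 0.5 and 0.6). *Ankrd2* over *Ankrd23* and *Ankrd1* over *Ankrd2* had mean differences of -1.06 and -1.52, *Flnc* over *Flna* 0.55 and *Csrp3* over *Csrp1* -0.84, all with overlapping groups (exact permutation test, p = 0.3, 0.2, 0.3 and 0.4). By sign alone, each of the 8 ratios went one way in all 3 pairs, up for *Flnc* over *Flna* and *Bag3* over *Hspb8* and down for the other 6. Some of these differences were close to nil. In replicate 3 the log2 ratio of *Csrp3* to *Csrp1* was -0.224 with LrpprcWT and -0.230 with LrpprcP27A.

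**Figure D4:**
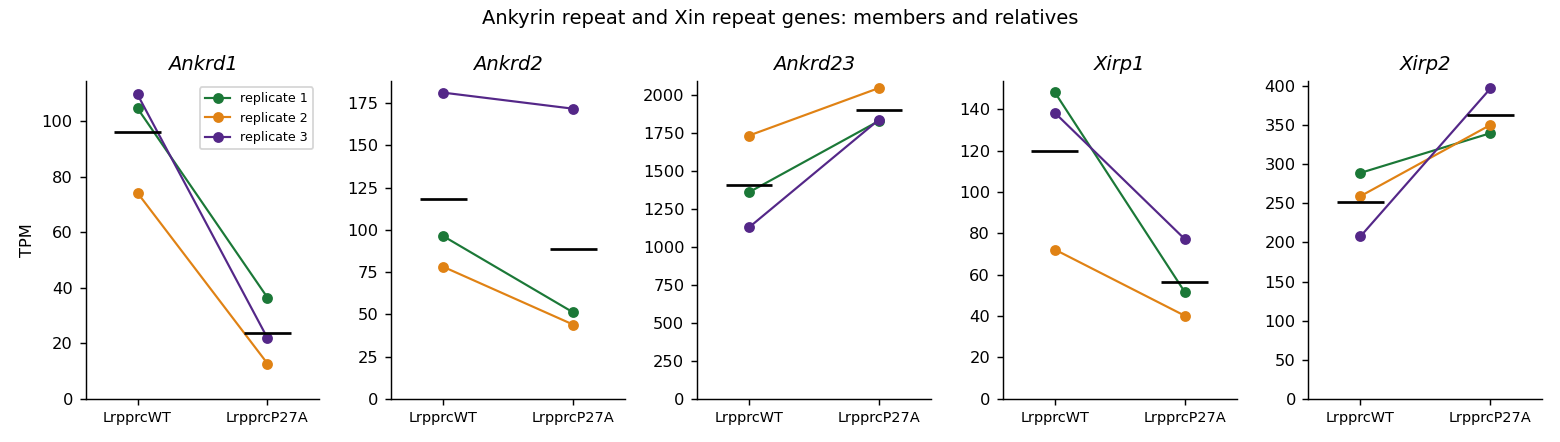
TPM (linear axes from 0, each with its own range) of *Ankrd1*, *Ankrd2* and *Ankrd23* and of *Xirp1* and *Xirp2* in the 6 muscles. Lines join libraries of the same number and black bars are group means (n = 3). *Ankrd1* and *Xirp1* go down in every pair, while *Ankrd23* and *Xirp2* go up in every pair.

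Other genes of the same machinery were examined as lists. Of 35 tested Z-disc and titin-associated genes outside the 10, 7 were lower and 4 higher in the unpaired test, where 23.3% and 1.34% of all tested genes were. Their median log2 fold change was -0.11, against -0.32 over all tested genes. Among the lower genes, *Fhl2*, which encodes a LIM protein of the titin N2B region, had the lowest value (6.91 ± 3.98 against 1.02 ± 0.409 TPM, SD, n = 3, log2 fold change -1.82, adjusted p = 0.0214 from limma), followed by *Myoz2*, a slow-fibre calsarcin (-1.27, adjusted p = 0.0282 from limma). The highest values were those of *Xirp2* and of *Trim54*, a muscle ubiquitin ligase (0.48, adjusted p = 0.0242 from limma). In the paired fit with median-of-ratios scaling 4 were lower and 15 higher, where 14.1% and 17.2% of all tested genes were. The list median turned to 0.31.

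Of 12 other small heat shock and Bag3-pathway genes, 2 were lower and 0 higher in the unpaired limma test, and 4 and 0 with the block. Of all tested genes, 23.3% were lower unpaired and 48.4% with the block. The 2 called unpaired were *Hspb3* (61.6 ± 5.04 against 35.1 ± 2.00 TPM, SD, n = 3, log2 fold change -0.79, adjusted p = 0.0116 from limma), a muscle-specific small heat shock protein, and *Hspb8* (488 ± 65.0 against 315 ± 3.94 TPM, SD, n = 3, log2 fold change -0.62, adjusted p = 0.0160 from limma). *Sqstm1*, the autophagy receptor p62, and *Dnajb2* had the highest values, 0.15 and -0.021 (adjusted p = 0.349 and 0.912 from limma). Scaled by median-of-ratios, *Hspb3* and *Hspb8* changed in log2 units by -0.38 and -0.20 (adjusted p = 0.0501 and 0.234 from limma). The list median was -0.23 as deposited and turned to 0.18 with that scaling. With that scaling the paired fit called 1 of the 12 lower and 5 higher, where 14.1% and 17.2% of all tested genes were.

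Of 15 other heat shock factor targets, 2 were lower (*Dnajb1*, -1.14, and *Dnajb4*, -0.76, both Hsp70 co-chaperones, adjusted p = 0.0288 and 0.0292 from limma) and 0 higher, with a list median of -0.26 that turned to 0.13 with median-of-ratios scaling. Over all tested genes the unpaired test called 23.3% lower and 1.34% higher, and the median was -0.32, or 0.036 with that scaling. Of these 15 genes the paired fit called 7 lower and 0 higher as deposited (48.4% and 2.69% of all tested genes). With that scaling it called 2 lower and 3 higher (14.1% and 17.2% of all tested genes). The Hsp70 genes *Hspa1l* and *Hspa1b* had the highest values, 0.34 and 0.027 (adjusted p = 0.227 and 0.978 from limma). Of 14 tested targets of YAP, TAZ and TEAD, the stretch-regulated factors known to act on *Ankrd1*, 3 were lower and 0 higher, with a median of -0.48. The paired fit called 10 lower and 0 higher as deposited, where 48.4% and 2.69% of all tested genes were. With median-of-ratios scaling it called 4 lower and 2 higher, where 14.1% and 17.2% were, and the list median was -0.11. The lowest was *Ccn2*, with 93.1, 20.04 and 113 TPM with LrpprcWT and 23.9, 12.2 and 24.8 TPM with LrpprcP27A (-1.58, limma adjusted p 0.0678 unpaired and 3.80e-06 paired). *Gadd45a* followed (-1.29, adjusted p = 0.0166 from limma), and *Crim1* and *Arhgef17* had the highest values, 0.18 and -0.024 (adjusted p = 0.471 and 0.881 from limma). Of 18 targets of SRF and its coactivator MRTF, 4 were lower and 0 higher unpaired, where 23.3% of all tested genes were lower, with a median of -0.73. The paired fit called 14 lower and 0 higher as deposited (48.4% and 2.69% of all tested genes). With median-of-ratios scaling it called 6 lower and 1 higher (14.1% and 17.2% of all tested genes), and the list median was -0.31. The immediate early gene *Junb* had the lowest value after *Fhl2* (-1.39, adjusted p = 0.0186 from limma), and *Cnn1* and *Srf* itself the highest (0.022 and -0.036, adjusted p = 0.926 and 0.827 from limma).

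**Figure D5:**
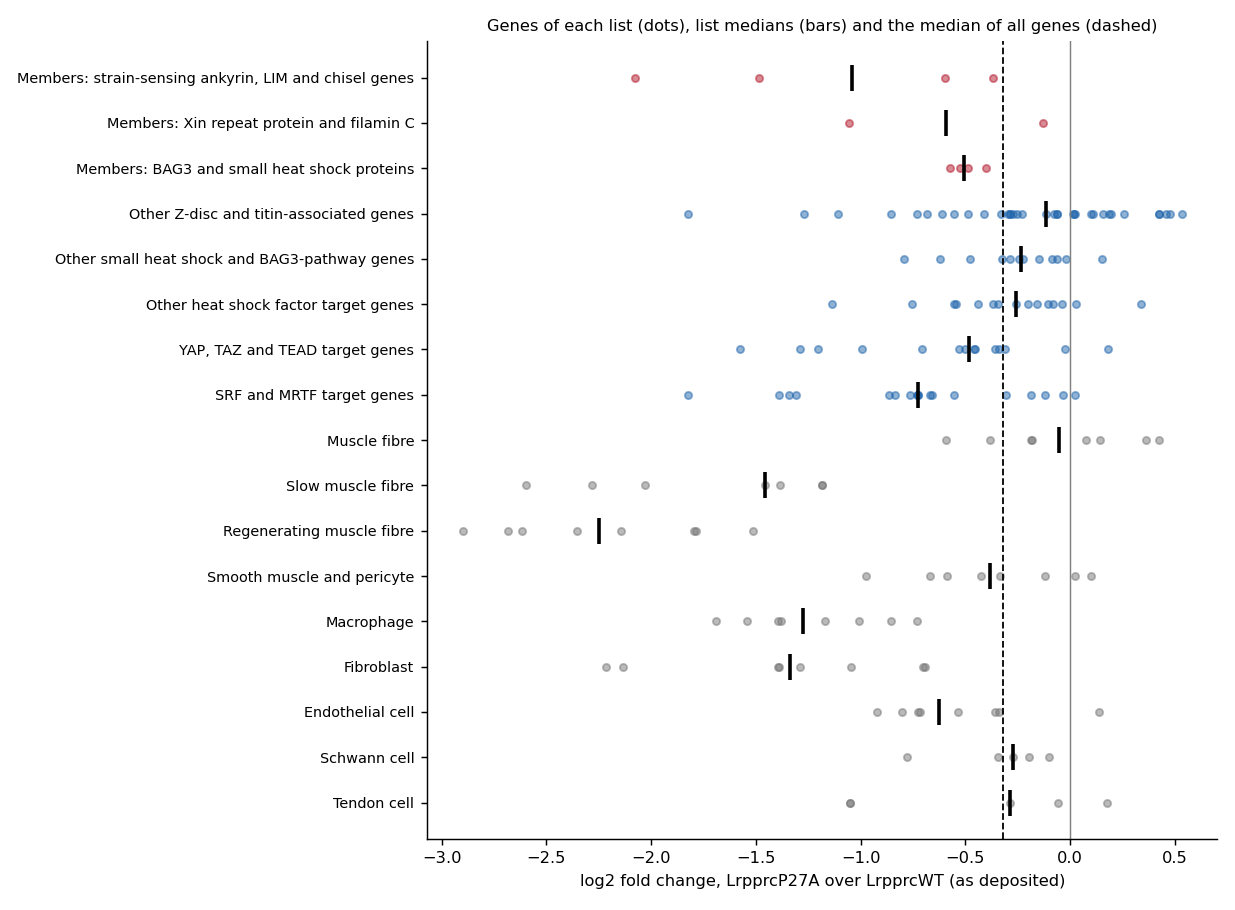
Log2 fold change of LrpprcP27A over LrpprcWT as deposited (x axis) for the tested genes of each list (y axis). Dots are genes, black bars list medians, and the dashed line is the median of all tested genes (-0.32). The 10 genes described are in red, related lists in blue and cell type markers in grey, with the regenerating fibre markers lowest (median -2.25).

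The profile of *Ankrd1* over the 6 libraries was closest to those of the fibrillar collagen genes *Col1a1*, *Col1a2* and *Col3a1*, at root mean square distances of 0.17, 0.17 and 0.17 on the centred log2 scale. That of *Csrp3* was closest to *Ifi205*, *Ifi211* and *Irs2*, at 0.44, 0.56 and 0.56. Likeness over 6 libraries from 3 mice is a description only. Markers of some other cells and fibre states were lower in LrpprcP27A muscles as well. The unpaired test called 23.3% of all tested genes lower. All 8 fibroblast markers were called lower by limma, with a summed level of 895 to 1513 TPM with LrpprcWT and 251 to 533 TPM with LrpprcP27A. All 8 markers of regenerating fibres, among them *Myh3* and *Myog*, were called lower, with sums of 1921 to 2683 and 427 to 1099 TPM. Of 7 tested slow fibre markers 5 were called lower, with sums over the list of 118 to 208 and 36.9 to 48.4 TPM. All 8 macrophage markers were called lower, with sums of 309.7 to 619 and 104 to 212 TPM. Of 8 endothelial markers 3 were called lower, of 8 smooth muscle and pericyte markers 1, and of 5 tested Schwann cell and 5 tested tendon markers 1 each. The median log2 fold changes of the smooth muscle, Schwann cell and tendon lists were -0.38, -0.27 and -0.29. These lay near the median of all tested genes (-0.32). Summed levels were 211 to 374 and 153 to 208 TPM for endothelial cells, and 327 to 493 and 251 to 363 TPM for smooth muscle and pericytes. They were 54.5 to 69.6 and 31.3 to 62.2 TPM for Schwann cells, and 94.5 to 171 and 44.1 to 126 TPM for tendon. After median-of-ratios scaling the unpaired test still called 8 regenerating fibre, 5 fibroblast, 4 slow fibre and 3 macrophage markers lower. It called none of the endothelial, smooth muscle, Schwann cell and tendon markers lower, and 5.81% of all tested genes. Of the 8 muscle fibre markers, 1 was called lower and 1 higher unpaired as deposited. After median-of-ratios scaling 0 were called lower and 1 higher, where 6.83% of all tested genes were higher. None of the listed markers was at 0 in all libraries. The part of these markers in the levels of *Ankrd1*, *Csrp3*, *Xirp1* and the other genes was not tested.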

How the data were processed

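RNA was sequenced from 6 TA muscles, 3 per group, grouped by the treatment in the labels. The authors trimmed and filtered paired-end reads, aligned them to GRCm39 and derived TPM values per gene in CLC Genomics Workbench, and the deposited TPM values sum to 1000000 in each library. The annotation and depth are not given in the sources used here, so the precision of single values is unknown. Because TPM is a share, a shift in abundant transcripts changes the value of every other gene. Mitochondrial genes took 36.0% to 46.1% of the TPM and ribosomal RNA loci 0.910% to 4.48%.

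Genes averaging 1 TPM or more (11611) were taken to log2(TPM + 1), and limma 3.58.1 (R 4.3.3) tested LrpprcP27A against LrpprcWT (empirical Bayes with a trend, Benjamini-Hochberg over all tested genes). The study used the Kruskal-Wallis test, which was run as an alternative. The pseudocount shrinks log2 fold changes of low genes. On simulated data for LrpprcP27A against LrpprcWT over 11611 genes, 190 of 200 genes changed by a log2 fold change of 2 and 7 unchanged genes were called. The simulated noise was independent for each gene and library, and as many genes were raised as lowered. No shift of whole libraries and no mouse effect were simulated, so these counts do not cover errors from scaling or pairing.

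The pairing comes from the contralateral design in the methods and the library numbers that both groups share. Nothing states outright that the number is the mouse. Deviations from the group means correlated by 0.36, 0.53 and 0.36 across 11611 genes in the 3 pairs. These values do not test the pairing, because libraries of different numbers were not set beside them.

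Named were all 10 genes, *Lrpprc*, the 2 lowest and 2 highest genes of each related list, related or neighbouring genes, and the nearest profiles of the 2 genes with the largest change. The ratios, and the sentence on *Hspa1b* in replicate 3, were chosen with values known. The genes and lists were chosen with earlier results of these data known. Positions and windows come from GENCODE on GRCm39, by symbol. Proteins were not analysed here. One related gene covered by the naming rule is not reported here. Alternatives were another pseudocount, filters, scalings, the block, and libraries or mice left out.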

Additional observations from a re-analysis of the deposited data

How the results depend on the processing

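As described, 2705 genes were lower, 156 higher, and 2 of the 10 genes lower and 0 higher. With a mean TPM of at least 5, 1560 genes were lower. With no filter these counts were 42, 9 and 0, and with the Kruskal-Wallis test 0, 0 and 0 (unadjusted p under 0.05: 6671, 429 and 4, and 5530, 407 and 2). The Kruskal-Wallis test could call no gene, because its smallest p with 3 against 3 libraries cannot pass the adjustment over all genes. The replicate block gave 5619, 312 and 9. Median-of-ratios scaling gave 675, 793 and 1, the rescaling without mitochondrial and ribosomal RNA genes 661 lower and 1 of the 10, quantile normalization 520, 493 and 1. Combining median-of-ratios scaling with the block gave 1636, 1995 and 3. Leaving out single libraries, 15 to 6913 genes were lower, 3 to 304 higher, and 0 to 5 of the 10 lower (0 without the LrpprcWT library of replicate 3, 5 without that of replicate 2). Added after the data were seen, the block without both libraries of replicate 1, 2 or 3 called 4, 8 and 8 of the 10, among 2895, 6323 and 2878 genes lower, and without replicate 2 gave 281 genes higher. None of the 10 was called higher in any of these fits. The causes were not tested.

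The direction turned for 3 of the 10 genes. With median-of-ratios scaling, with and without the block, *Smpx* was at 0.055, *Flnc* at 0.29 and *Cryab* at 0.024. *Flnc* was also at 0.056 with the rescaling, 0.10 with quantile normalization and 0.044 with the block without replicate 1. None of these passed an adjusted p under 0.05 from limma. *Ankrd1* was below -1.6 in every fit run, *Csrp3* below -0.8 and *Xirp1* below -0.6. TPM keeps no depth, so no limit from depth can be given.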
